A study of Mus musculus with 8 samples.

Results

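The 9 genes Mmp2, Mmp7, Mmp14, Mmp15, Timp1, Timp3, Adamts1, Lox and Loxl2 encode enzymes that cut or crosslink the extracellular matrix and inhibitors of the cutting enzymes. They were taken by symbol as a listed set from a table of 25239 genes, and all 9 had counts in each of the 8 libraries and passed the filter on low counts. The libraries are RNA-seq of mouse kidney after ischemia-reperfusion (I/R), an injury made by stopping and then restoring the blood flow. Knockouts 1 to 4 come from the group labelled myeloid-specific FoxO1-knockout, which carried Lyz2-CreERT2 and FoxO1flox/flox. Lyz2 directs this Cre to macrophages, monocytes and neutrophils, and the Cre acts only once tamoxifen is present. Tamoxifen was given at 75 mg per kg for 5 days at an age of 8 to 10 weeks. Controls 1 to 4 have the genotype label WT, and the sources used here do not say whether they carried Cre or a floxed allele. The tamoxifen protocol is attached to their records too, with no word on whether they received it. In both groups the right kidney was removed, the left renal artery and vein were clamped for 35 minutes, and kidney tissue was digested with collagenase before extraction. The interval between reperfusion and collection is not given in the sources used here. No label ties a library to its own animal, so the p-values measure the spread between libraries, which may be partly technical.

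Matrix metalloproteinases are zinc enzymes made as inactive precursors, and tissue inhibitors of metalloproteinases (TIMPs) block the active enzymes by binding their catalytic site. Mmp14 and Mmp15 sit in the cell membrane, and Mmp14 together with the inhibitor TIMP-2 activates the precursor of Mmp2 at the cell surface. Lysyl oxidases act in the opposite sense, since they oxidise lysines of collagen and elastin so that the fibres become crosslinked. In the kidney Timp1 and Mmp7 are known as genes that injured tubules switch on, while Mmp2 is mainly a product of mesenchymal cells.

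Promoter sequence was at hand in RefSeq (build GRCm38.p6) for 6 of the 9 genes and not used here for the other 3. The 250 bases before the first listed start are shown for Mmp7 and Timp1, which fell in the knockout, and for Timp3, an inhibitor gene that did not pass the test. Capitals mark matches on either strand to motifs of 5 kinds, none of which contains another. The motif searched for AP-1 was TGANTCA. For Ets factors it was AGGAAG, the core that they recognise. For the TATA box, which positions the polymerase, it was TATAAA. The GC box bound by Sp1 was searched as GGGCGG. The motif for FoxO factors was GTAAACA. The regions are chr9:7691840-7692089 (plus strand) for Mmp7, chrX:20869916-20870165 (plus strand) for Timp1 and chr10:86300162-86300411 (plus strand) for Timp3.
Mmp7: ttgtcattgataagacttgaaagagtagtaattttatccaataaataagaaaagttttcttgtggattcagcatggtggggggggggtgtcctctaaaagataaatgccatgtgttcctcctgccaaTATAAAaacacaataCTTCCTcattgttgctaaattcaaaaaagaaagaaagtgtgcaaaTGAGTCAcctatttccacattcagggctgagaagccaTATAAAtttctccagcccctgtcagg
Timp1: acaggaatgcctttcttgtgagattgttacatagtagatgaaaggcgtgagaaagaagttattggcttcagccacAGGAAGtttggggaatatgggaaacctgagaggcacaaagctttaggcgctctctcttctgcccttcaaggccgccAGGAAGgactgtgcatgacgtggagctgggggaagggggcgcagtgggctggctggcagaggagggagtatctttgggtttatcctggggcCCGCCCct
Timp3: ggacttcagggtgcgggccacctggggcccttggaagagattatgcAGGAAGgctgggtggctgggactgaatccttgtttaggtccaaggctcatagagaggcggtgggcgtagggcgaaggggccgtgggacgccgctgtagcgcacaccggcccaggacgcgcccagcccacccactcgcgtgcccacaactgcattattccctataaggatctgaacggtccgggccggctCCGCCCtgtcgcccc
The Mmp7 promoter held an AP-1 match from -63 to -57 and a TATA box from -26 to -21, counted from the start. Mmp7 was the 1 gene among the 6 with the AP-1 letters before any listed start, and it alone has 2 starts listed. Counted per start, 6.75% of all 32851 listed promoters hold these letters over the same length. Upstream of Timp1 there were 2 Ets matches and a GC box. A variant of the AP-1 letters, TGAGTAA, lay after the Timp1 start together with an Ets match, in a stretch of 23 bases at chrX:20870189-20870211.
Timp1, after the start: ggaTGAGTAAtgcgtccAGGAAG
These variant letters were picked for Timp1, so that finding them there was no test. They occur in 2.68% of promoters when the 50 bases after the start are included, and upstream in 0 of the 6 searched. Ets letters were found upstream in 4 of the 6 genes (29.5% of all listed promoters), the GC box in 5 (32.7%) and the TATA box in 2 (12.4%). The FoxO letters were found in 0 of the 6, against 3.17% of all listed promoters. These are matches of letters, and no binding was measured.

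Library totals ran from 29044405 to 34738914 counts in knockouts and from 32627652 to 35530421 in controls. Levels are given as CPM, the counts divided by library size after TMM scaling. Calls rest on edgeR's quasi-likelihood test over 15000 genes, with 0.05 as the limit of the adjusted p. Foxo1 itself stood at 39.3 to 42.9 CPM in knockouts and 33.0 to 34.5 CPM in controls, higher in every knockout (log2 fold change 0.29; adjusted p = 0.0647 in edgeR and 0.0199 in DESeq2). This does not check the deletion, because the gene is also expressed by kidney cells outside the myeloid lineage. Lyz2 was low in knockout 3 (0.367 CPM) and control 1 (2.28 CPM), against 25.4 to 50.4 CPM in the other 6 libraries. Summed macrophage markers did not show this, at 211 CPM in knockout 3 and 265 CPM in control 1, against 149 to 313 CPM in the other 6. Summed neutrophil markers were lowest in knockout 3 (5.81 CPM) and highest in control 1 (169 CPM). Proximal tubule markers had summed levels of 21251 to 31695 CPM in knockouts and 9675 to 20370 CPM in controls. Most of each sum came from 1 gene, Kap, at 14913 to 26074 CPM in knockouts and 7686 to 15531 CPM in controls. Kap itself overlapped between the groups and did not pass (adjusted p = 0.191 in edgeR). The controls did not form an even group: in 31.2% of tested genes controls 1 and 3 were both above controls 2 and 4, and in 28.9% both were below. Among the 9 genes, 3 followed the first order (Mmp7, Mmp15 and Adamts1) and 2 the second (Mmp2 and Loxl2).

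Of the 9 genes, 1 rose (Mmp2), 2 fell (Timp1 and Mmp7) and 6 did not pass in the knockout, where 12.7% of all tested genes were called. Genes called higher made up 6.45% of those tested and genes called lower 6.28%. In the same 3 genes the knockout and control libraries did not overlap, a pattern that 21.7% of tested genes showed. The median log2 fold change of the 9 genes was -0.12, beside -0.01 for all tested genes.

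The count of 3 depended on the fit and on single libraries. DESeq2 called 4 of the 9 genes (17.9% of all tested), limma voom with quality weights 3 (19.0%) and a minimum of 50 counts 2 of 8 (14.4%). With library totals, without the filter and with halved counts it stayed at 3, while 12.1%, 9.23% and 14.0% of all genes were called. Without knockout 1, 2, 3 or 4 in turn the count was 1, 2, 2 and 1 (11.5%, 6.92%, 7.50% and 5.98% of all genes). Without control 1, 2, 3 or 4 in turn it was 1, 4, 1 and 2 (10.4%, 13.1%, 6.96% and 9.82%). It was 1 with a replicate block (5.77%) and 1 without control 1 and knockout 3 together (6.95%), the libraries low in Lyz2. Timp1 was called in every one of these fits.

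**Figure D1:**
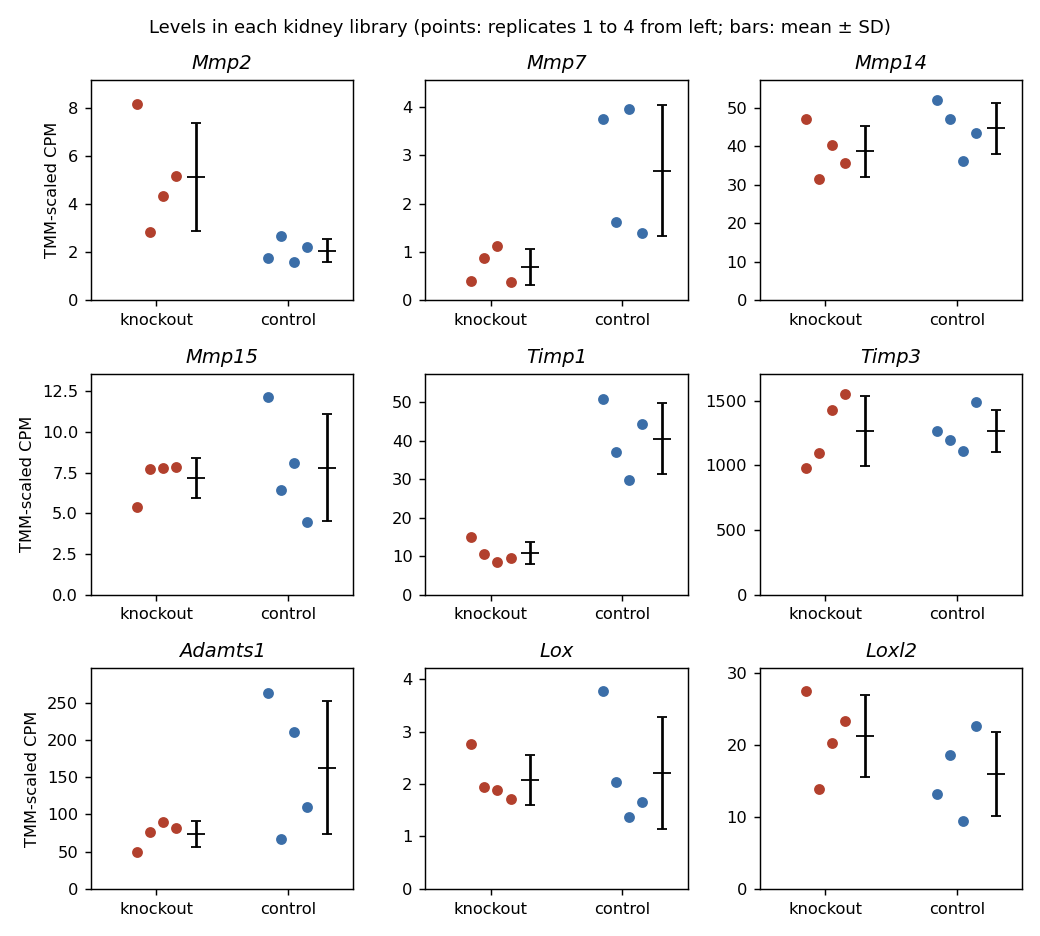
TMM-scaled CPM of the 9 genes in each library, knockouts at the left and controls at the right of each panel, with the mean and SD of 4 libraries as bars. The groups are apart for Mmp2, Mmp7 and Timp1 and overlap in the other 6 panels.

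Timp1, which encodes the secreted inhibitor TIMP-1, had the smallest p of the set. Its levels were 14.9, 10.6, 8.55 and 9.39 CPM in knockouts 1 to 4 and 50.9, 37.1, 29.7 and 44.3 CPM in controls 1 to 4. The lowest control lay well above the highest knockout. The means were 10.9 ± 2.84 CPM in knockouts and 40.5 ± 9.13 CPM in controls (SD, n = 4 each), 3.73-fold lower in the knockout (log2 fold change -1.90 with an SE of 0.22; adjusted p = 0.00120 in edgeR). The call held whichever library was left out, with log2 fold changes of -2.09 to -1.77. Timp1 lies inside the gene Syn1 on the other strand, and the library kit does not mark strand, but Syn1 itself had 4 to 33 counts per library where Timp1 had 303 to 1811.

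Mmp7 encodes matrilysin, a small protease of epithelial cells that also cleaves E-cadherin. It had 11, 30, 40 and 13 counts in knockouts 1 to 4 and 133, 52, 141 and 43 counts in controls 1 to 4, which is 0.396, 0.869, 1.13 and 0.385 CPM against 3.74, 1.63, 3.96 and 1.39 CPM. The controls were split, since controls 1 and 3 stood more than 2-fold above controls 2 and 4, and control 4 was close to knockout 3. The means were 0.695 ± 0.367 CPM in knockouts and 2.68 ± 1.36 CPM in controls (SD, n = 4 each), 3.82-fold lower in the knockout (log2 fold change -1.94 with an SE of 0.49; adjusted p = 0.0308 in edgeR). The call was lost in 5 of the 8 fits without 1 library (without knockout 1, 2 or 4 or control 1 or 3, adjusted p up to 0.0901), while the log2 fold change stayed between -2.27 and -1.69.

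Mmp2, the gelatinase A gene, was the member that rose. It stood at 8.17, 2.84, 4.34 and 5.19 CPM in knockouts 1 to 4 and at 1.77, 2.69, 1.60 and 2.203 CPM in controls 1 to 4. Knockout 1 was highest, and knockout 2 was barely above control 2. The means were 5.13 ± 2.24 CPM in knockouts and 2.07 ± 0.487 CPM in controls (SD, n = 4 each), 2.48-fold higher in the knockout (log2 fold change 1.31 with an SE of 0.34; adjusted p = 0.0318 in edgeR). The call was lost in 6 of the 8 fits without 1 library (all but those without knockout 2 or control 2, adjusted p up to 0.0847), and without knockout 1 the log2 fold change was 1.00.

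Adamts1 encodes a secreted protease that cuts the proteoglycans aggrecan and versican. Its levels were 49.5, 76.7, 89.5 and 81.3 CPM in knockouts 1 to 4, and 264, 67.5, 210.0 and 110 CPM in controls 1 to 4. Controls 1 and 3 were far above every knockout and control 4 was above every knockout by less, whereas control 2 lay within the knockout range. The means were 74.2 ± 17.3 CPM in knockouts and 163 ± 89.8 CPM in controls (SD, n = 4 each), and the difference, -1.13 on the log2 scale with an SE of 0.37, missed the limit in edgeR (adjusted p = 0.0729). Without control 2 it passed (log2 fold change -1.39, adjusted p = 0.0152), and it also passed in DESeq2 (adjusted p = 0.0129). Over the 17 alternative settings the adjusted p ran from 0.0129 to 0.193.

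**Figure D2:**
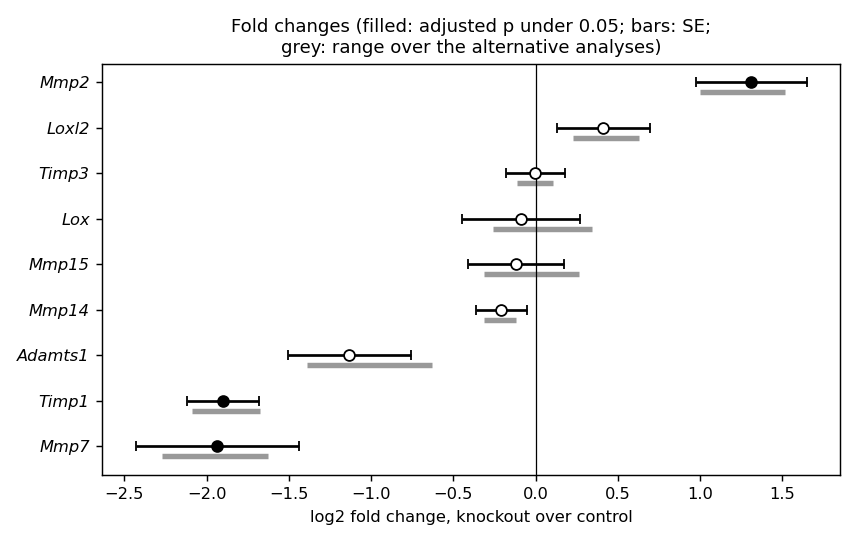
Log2 fold change, knockout over control, of the 9 genes with its SE as a bar, and the range over the alternative settings as a grey band. Filled points (Mmp2 at 1.31, Timp1 at -1.90 and Mmp7 at -1.94) passed the adjusted p threshold of 0.05.

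The membrane metalloproteinases gave no call. Mmp14, which encodes the enzyme MT1-MMP that cuts collagen and activates Mmp2, had 47.1, 31.6, 40.4 and 35.7 CPM in knockouts 1 to 4 and 52.0, 47.1, 36.2 and 43.4 CPM in controls 1 to 4. The ranges overlapped over most of their width (log2 fold change -0.21 with an SE of 0.15; adjusted p = 0.403 in edgeR). Mmp15, which encodes a relative of MT1-MMP, had 5.36, 7.70, 7.79 and 7.85 CPM in knockouts 1 to 4 and 12.2, 6.45, 8.12 and 4.44 CPM in controls 1 to 4. Its highest and its lowest library were both controls. On the log2 scale the difference of -0.12 (SE 0.29; adjusted p = 0.825 in edgeR) turned to 0.18 without control 1.

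Timp3 encodes the inhibitor TIMP-3, which binds to the matrix, and was the most abundant member by far. It had 982, 1097, 1429 and 1553 CPM in knockouts 1 to 4 and 1267, 1194, 1111 and 1492 CPM in controls 1 to 4. Both the highest and the lowest library were knockouts. The group means were almost the same, at 1265 ± 270 CPM in knockouts and 1266 ± 164 CPM in controls (SD, n = 4 each). On the log2 scale the difference was -0.000747 (SE 0.18; adjusted p = 0.998 in edgeR) and its sign turned in 9 of 17 alternative settings, all within -0.11 to 0.10. Exons of Timp3 overlap those of Syn3 on the other strand, and Syn3 had 63 to 162 counts where Timp3 had 27290 to 52408. Exons of Mmp7 overlap those of AV064505 on the other strand, which had 0 counts in all libraries. Exons of Lox and Loxl2 also overlap those of other genes, whose values are not given here.

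The lysyl oxidase genes overlapped between the groups as well. Lox, the founding member of the family, had 2.77, 1.94, 1.89 and 1.72 CPM in knockouts 1 to 4 and 3.77, 2.03, 1.38 and 1.65 CPM in controls 1 to 4 (log2 fold change -0.09 with an SE of 0.36; adjusted p = 0.897 in edgeR). Control 1 was highest, and without it the log2 fold change was 0.30. Loxl2, whose enzyme crosslinks collagen IV of basement membranes, had 27.5, 13.8, 20.4 and 23.4 CPM in knockouts 1 to 4 and 13.2, 18.7, 9.44 and 22.6 CPM in controls 1 to 4. Controls 1 and 3 were lowest here (log2 fold change 0.41 with an SE of 0.28; adjusted p = 0.370 in edgeR).

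**Figure D3:**
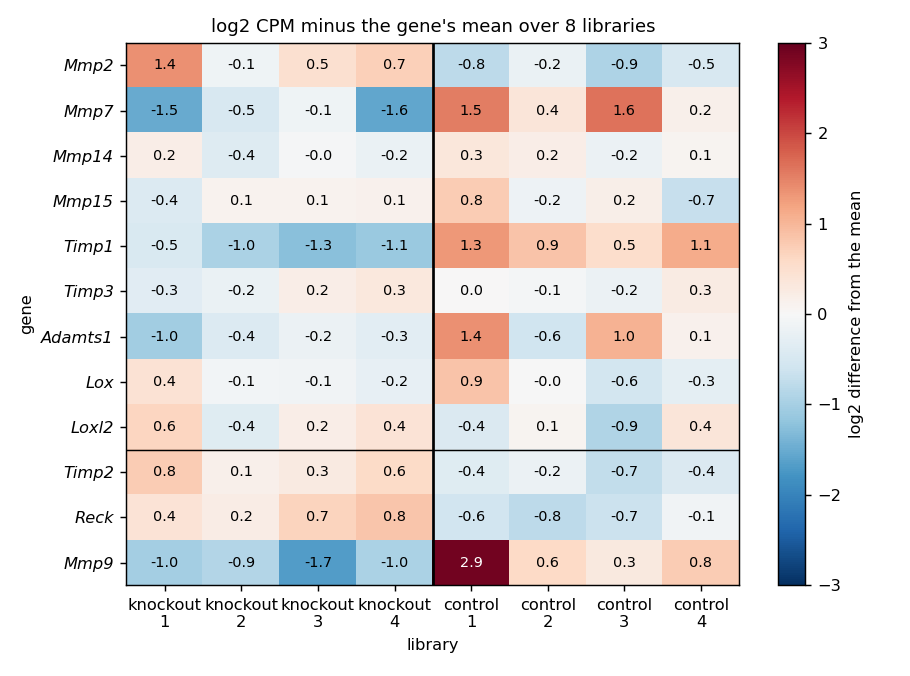
Log2 CPM of the 9 genes and of Timp2, Reck and Mmp9 in each library, as the difference from the gene's mean over 8 libraries, knockouts at the left. In controls 1 and 3 Mmp7 and Adamts1 are highest and Loxl2 is lower than in controls 2 and 4.

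Levels of different genes were compared per kilobase of the deposited gene length. Timp3 led in both groups, with group means of 270.3 CPM per kilobase in knockouts and 270.5 CPM per kilobase in controls. Timp1 had rank 3 in knockouts (12.2 CPM per kilobase, range 9.60 to 16.8) and rank 2 in controls (45.5, range 33.4 to 57.2). Adamts1 took the other of these places, at 15.2 CPM per kilobase in knockouts (range 10.1 to 18.3) and 33.4 in controls (13.8 to 54.0), and its range overlapped that of Timp1 in both groups. Mmp14 was next, at 10.2 CPM per kilobase in knockouts and 11.8 in controls, with a range that in knockouts overlapped those of Timp1 and Adamts1. Loxl2 had rank 5 at 4.11 CPM per kilobase in knockouts (range 2.67 to 5.31) and 3.09 in controls (1.82 to 4.37). In controls its range overlapped those of Mmp7 and Mmp15, and in controls 1 and 3 it lay below both.

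At the low end the order differed between the groups. Mmp2 had rank 6 in knockouts (1.67 CPM per kilobase, range 0.923 to 2.66) and rank 8 in controls (0.672, range 0.521 to 0.876), while Mmp7 had rank 8 in knockouts (0.623, range 0.346 to 1.01) and rank 6 in controls (2.40, range 1.25 to 3.55). Mmp15 had rank 7 in both (1.66 and 1.80 CPM per kilobase in knockouts and controls), and its range overlapped that of Mmp2 in knockouts and that of Mmp7 in controls. Lox was last in both groups, at 0.422 CPM per kilobase in knockouts and 0.447 in controls, with a range that overlapped that of Mmp7 in knockouts and that of Mmp2 in controls.

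**Figure D4:**
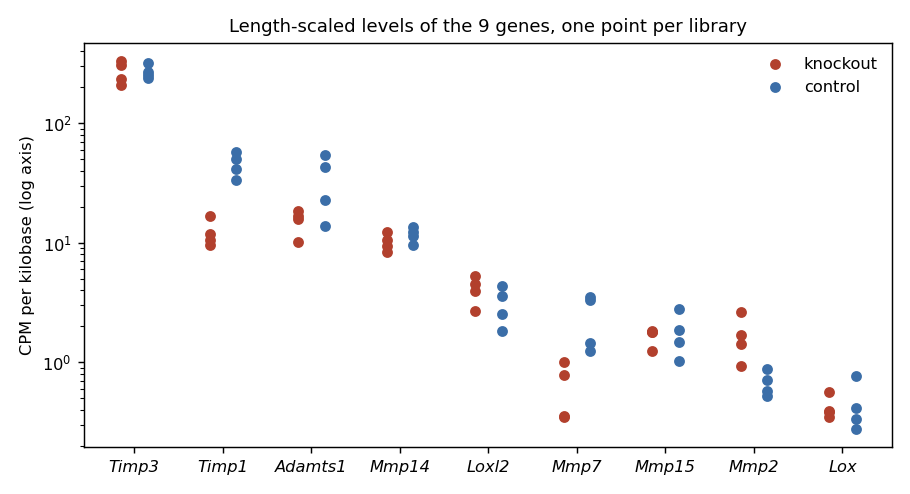
CPM per kilobase of gene length on a log axis, 1 point per library, for the 9 genes in order of their mean level in controls. Timp3 lies above 200 CPM per kilobase in all 8 libraries, and the knockout points of Timp1 and Mmp7 lie below and those of Mmp2 above the control points.

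Ratios of genes within a library do not depend on library scaling. The ratio of Timp1 to Timp3 per kilobase was 0.0485 ± 0.0228 in knockouts and 0.168 ± 0.0304 in controls (SD, n = 4 each). Timp1 made up 2.89% to 6.67% of the summed level of Timp1, Timp2 and Timp3 in knockouts and 11.95% to 16.9% in controls. The ratio of Mmp14 to Mmp2 was 6.68 ± 1.95 in knockouts and 18.03 ± 4.17 in controls (SD, n = 4 each). The ratios of Mmp14 to Mmp15 and of Loxl2 to Lox overlapped between the groups. On the scaled levels, the 4 metalloproteinases together summed to 14.1 ± 2.08 CPM per kilobase in knockouts and 16.6 ± 2.63 in controls, and these sums overlapped. These values use genes chosen with their values known and were not tested.

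For each member the 2 genes with the closest profile over the 8 libraries were looked up, by the root mean square difference of centred log2 CPM among 12120 genes. For Timp1 they were Il34, a cytokine gene of the CSF1 receptor (0.18), and the small heat shock gene Hspb1 (0.20). Both fell in the knockout, Il34 to 34.7 ± 4.85 CPM against 130 ± 22.9 CPM in controls, and Hspb1 to 32.7 ± 10.8 CPM against 128 ± 38.7 CPM in controls (SD, n = 4 each). For Mmp7 they were Pdk4 (0.29), a kinase that curbs pyruvate oxidation, and the metallothionein gene Mt2 (0.41), with log2 fold changes of -2.11 and -1.91. For Mmp2 they were Myl9 (0.19), a myosin light chain gene of contractile cells, at a log2 fold change of 1.11, and the integrin gene Itga8 (0.22), which at 1.28 did not pass (edgeR adjusted p = 0.0502). For Adamts1 they were Uprt and Golm1, at 0.23 each. Those reported for the other members were Selenon and Chic2 for Mmp14, Atp8b1 and Lonrf3 for Mmp15, Plekhg5 for Timp3, Pid1 and Cyth4 for Lox and Rem1 and Pla2r1 for Loxl2, with differences of 0.09 to 0.15. All of these genes were picked for likeness over the same 8 libraries, so that their differences between the groups follow from the choice.

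Related genes were read against the same background. Among inhibitors outside the 9 genes, 2 of 5 tested rose and 1 fell. Timp2, whose product both inhibits metalloproteinases and helps Mmp14 to activate Mmp2, had 90.3, 59.2, 64.3 and 79.4 CPM in knockouts 1 to 4 and 41.3, 47.0, 32.0 and 39.6 CPM in controls 1 to 4. Every knockout lay above every control, and the gene was 1.83-fold higher (log2 fold change 0.87 with an SE of 0.16; adjusted p = 0.00892 in edgeR), a call that held without any 1 library. Reck, a membrane-anchored inhibitor of metalloproteinases, had 6.54 ± 1.23 CPM in knockouts and 3.11 ± 0.712 CPM in controls (SD, n = 4 each), 2.10-fold higher (edgeR adjusted p = 0.0171, lost without knockout 4 or control 3, up to 0.0618). Pzp, a broad protease inhibitor of the macroglobulin family, was 8.32-fold lower, at 2.26 ± 1.59 CPM in knockouts and 18.9 ± 5.999 CPM in controls (SD, n = 4 each). Without knockout 3 its log2 fold change was -3.68, against -3.06 with all libraries.

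Of 11 other metalloproteinases tested in edgeR, 0 rose, 1 fell and 10 did not pass, with a median log2 fold change of 0.17 and 3 at an unadjusted p under 0.05. DESeq2, which tested 15 of them, called 1 higher and 2 lower. Mmp9, the gelatinase B gene, which neutrophils carry in their granules, had 1.73, 1.91, 1.07 and 1.81 CPM in knockouts 1 to 4 and 26.8, 5.41, 4.41 and 6.12 CPM in controls 1 to 4. All controls were higher, and control 1 stood far above the rest. It was 6.56-fold lower in the knockout (log2 fold change -2.71 with an SE of 0.58; adjusted p = 0.0160 in edgeR). Without control 1 the log2 fold change was -1.70, and without knockout 4 the call was lost (adjusted p = 0.0505). Of 9 neutrophil markers 6 were tested and 5 fell, their summed level was 5.81 to 17.3 CPM in knockouts and 26.6 to 169 CPM in controls, and 0 of the 9 were at 0 in all libraries. S100a9 and Csf3r were the most abundant of these, and without control 1 their log2 fold changes were -2.03 and -1.61, against -2.76 and -2.77. The count of 5 was 1, 3 and 2 without knockout 2, 3 and 4. The part of these cells in the level of Mmp9 was not tested.

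Of 13 other ADAMTS genes tested, 2 rose, 0 fell and 11 did not pass, with a median log2 fold change of 0.47. DESeq2 called 3 of 15, all of them higher, and the edgeR count was 0 without knockout 4 or control 3, 1 without knockout 1, 2 or 3 and 3 without control 2. Adamts7, which encodes a protease of cartilage oligomeric matrix protein, was 2.38-fold higher, at 6.61 ± 1.63 CPM in knockouts and 2.78 ± 0.782 CPM in controls (SD, n = 4 each). Its call was lost without knockout 4 or control 3 (edgeR adjusted p up to 0.0601). Adamts3, a procollagen-processing protease gene, was 2.42-fold higher (adjusted p = 0.0408 in edgeR), and its call was lost whichever library was left out (adjusted p up to 0.121). Among 8 ADAM sheddase genes tested, 1 fell: Adam8, at 7.07 ± 1.01 CPM in knockouts and 28.9 ± 23.4 CPM in controls (SD, n = 4 each), with a log2 fold change of -2.03 that was -1.29 without control 1. Its call was lost without knockout 2 or knockout 4 (edgeR adjusted p up to 0.0541).

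Genes that switch matrix proteases on or off changed in both directions, with 2 higher, 2 lower and 9 not passing among 13 tested. Plaur, the urokinase receptor gene, was 3.38-fold lower, at 26.7 ± 4.08 CPM in knockouts and 90.3 ± 14.8 CPM in controls (SD, n = 4 each; edgeR adjusted p = 3.68e-04). Mep1b, which encodes the proximal tubule protease meprin beta, was 6.70-fold higher, at 116 ± 21.3 CPM in knockouts and 17.4 ± 11.2 CPM in controls (SD, n = 4 each). Pcsk6, which encodes a proprotein convertase, was 2.75-fold higher, at 35.0 ± 3.87 CPM in knockouts and 12.7 ± 2.22 CPM in controls (SD, n = 4 each). Furin, the convertase that activates Mmp14, did not pass (log2 fold change -0.02), and neither did the urokinase gene Plau (0.03) or Bsg, which encodes the metalloproteinase inducer basigin (0.14).

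Of 15 genes of collagen processing and crosslinking outside the 9, 1 rose and 2 fell, and each of the 3 calls rested on a change under 2-fold. Plod3, a lysyl hydroxylase gene, was 1.49-fold lower in the knockout at 58.0 ± 1.51 CPM, against 86.6 ± 4.98 CPM in controls (SD, n = 4 each; edgeR adjusted p = 0.00462), with a call in all 8 fits without 1 library. The transglutaminase gene Tgm2 (log2 fold change -0.57) and the procollagen processing enhancer gene Pcolce (0.93) lost their calls in 7 and 5 of those 8 fits (edgeR adjusted p up to 0.0869 and 0.0936). The remaining lysyl oxidase genes Loxl1, Loxl3 and Loxl4 missed the limit at 0.73, 0.41 and -0.53 on the log2 scale. Loxl1 passed in 1 of the 8 fits without 1 library (without control 4, edgeR adjusted p = 0.0279). Bmp1, whose protease trims collagen and pro-lysyl oxidase, was at -0.11. Of 20 matrix substrate genes 1, the proteoglycan gene Bgn, rose (log2 fold change 0.91, edgeR adjusted p = 0.0457, lost in 6 of the 8 fits, up to 0.103), 0 fell and 19 did not pass. Their median log2 fold change was 0.41. DESeq2 called 4 of the 20 (4 higher, 0 lower). In edgeR the count was 4 higher without control 4, 2 higher without control 2 or with library totals, and 0 without knockout 1, 3 or 4 or control 1 or 3.

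**Figure D5:**
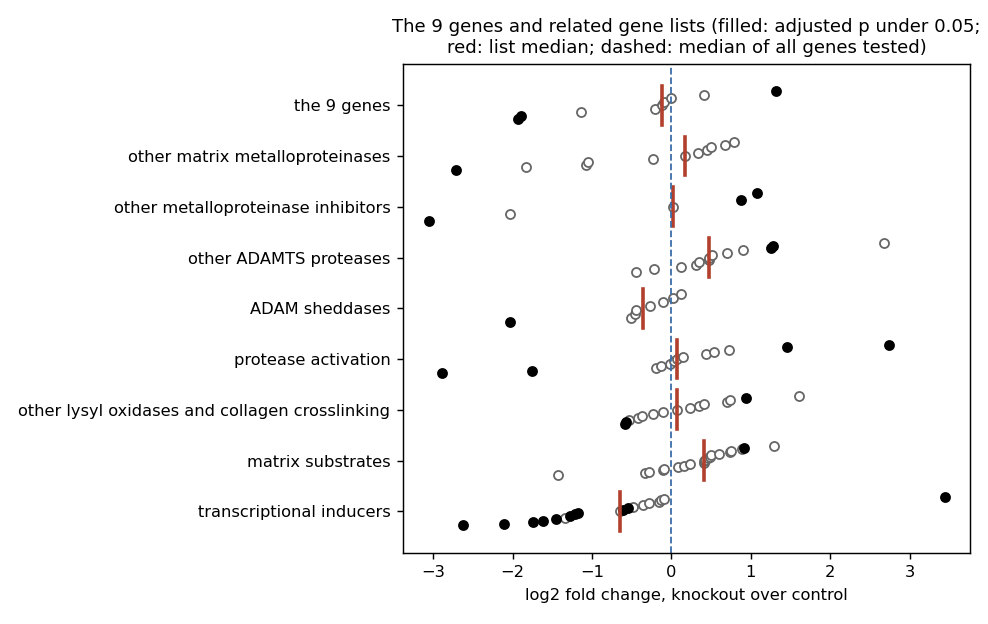
Log2 fold changes, knockout over control, of the 9 genes and of 8 related lists, 1 point per tested gene, filled where the adjusted p was under 0.05. Among transcription factors and cytokines 10 of 19 points are filled on the lower side and 1, Tgfb2, on the higher side; the red bars are list medians.

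Transcription factors and cytokines known to act on protease and TIMP promoters were lower in the main. Of 19 tested, 10 fell, 1 rose and 8 did not pass, with a median log2 fold change of -0.65. The AP-1 genes Junb and Jun fell to 57.7 ± 8.85 and 66.6 ± 7.27 CPM in knockouts, against 159 ± 31.7 and 162 ± 39.9 CPM in controls (SD, n = 4 each; edgeR adjusted p = 0.00120 and 0.00285). Atf3, a stress-induced partner of these factors, was 3.35-fold lower. Tgfb2, which encodes a growth factor that raises matrix production, rose to 15.1 ± 3.98 CPM in knockouts, against 1.39 ± 0.424 CPM in controls (SD, n = 4 each), 10.9-fold higher (edgeR adjusted p = 3.61e-04). All 4 of these calls held without any 1 library. The summed level of the list was 717 to 819 CPM in knockouts and 1138 to 1516 CPM in controls.

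Marker lists of kidney cell types were set beside these values. Of 11 injured tubule markers 9 fell and 0 rose (10 and 0 in DESeq2), and none was at 0. Their summed level was 5920, 6847, 6856 and 6319 CPM in knockouts 1 to 4 and 28649, 15085, 29702 and 17579 CPM in controls 1 to 4. Most of each sum came from 1 gene, Spp1, at 4143 to 5232 CPM in knockouts and 10476 to 21949 CPM in controls. Controls 1 and 3 were the highest, an order among controls that 31.2% of tested genes shared, Mmp7 and Adamts1 among them. The most abundant markers Spp1 and Clu had log2 fold changes of -1.76 and -1.52. Of 10 fibroblast markers 0 were called in edgeR (4 at an unadjusted p under 0.05), and none was at 0. In DESeq2, and in edgeR with library totals or without control 2, 2 of them were called, both higher, and 1 was without control 4. Their summed level was 584, 370, 498 and 429 CPM in knockouts 1 to 4 and 170, 370, 169 and 477 CPM in controls 1 to 4. Controls 1 and 3 were the lowest, an order among controls that 28.9% of tested genes shared, Mmp2 and Loxl2 among them. Col1a1 and Col3a1 led this list, with log2 fold changes of 0.75 and 0.60 that did not pass. Of 7 smooth muscle and pericyte markers, led by Tagln (-0.04) and Acta2 (0.47), edgeR called 0 (1 at an unadjusted p under 0.05, 0 in DESeq2, 1 called without knockout 1 or control 2), with sums of 273 to 398 CPM in knockouts and 177 to 354 CPM in controls. Of 8 macrophage markers, led by C1qa (0.29) and C1qb (0.18), edgeR called 0 (3 at an unadjusted p under 0.05, 3 in DESeq2, 2 called without control 2 and 1 without control 1 or 4), with sums of 211 to 313 CPM in knockouts and 149 to 271 CPM in controls. The 3 macrophage markers with an unadjusted p under 0.05 in edgeR went both ways. Csf1r was at 0.60 on the log2 scale, Cd68 at -0.58 and Mrc1 at -1.13. None of the smooth muscle or macrophage markers was at 0. The sums of these 3 lists overlapped between the groups, and those of the injured tubule list did not. Their part in the levels of the 9 genes was not tested. In tissue RNA, fewer cells of a type and less RNA per cell cannot be told apart.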

How the data were processed

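The authors deposited 1 table of whole-number counts per gene with a gene length column. Salmon 1.10.2, HISAT2 2.2.1, Trim Galore 0.6.2, FastQC and the build mm39 are listed in the submitters' processing notes, which do not say what made the counts. Among counts of 1 to 20, 68.7% to 70.9% per library were even, so a fragment may often count as more than 1. Counting error alone understates the spread, which was taken from the replicates. Genes were matched by symbol; the identifier column was not used.

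edgeR 4.0.16 in R 4.3.3 fitted knockout over control on all 8 libraries: filterByExpr (minimum count 10), TMM, quasi-likelihood test, Benjamini-Hochberg adjustment over 15000 genes. The same fit was run on simulated data in which only genes with higher mean counts than Mmp7 or Lox were changed. The outcome of that run is not given here, and it does not cover genes with counts that low. Log2 CPM used a prior count of 2. SE came from the F statistic. Alternatives were DESeq2 1.42.0, limma 3.58.1 voom with quality weights, other scalings and filters, a replicate block and left-out libraries. The block joined libraries with the same number in the sample titles, and no label gives this as a pairing.

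The 9 genes and the lists were chosen with earlier results of these data known. Named genes were the 9, Foxo1, Lyz2, up to 4 called genes per related list by smallest p, up to 2 most abundant markers per marker list, and the 2 closest profiles per member among genes whose mean log2 CPM reached 1. Syn1, Syn3, Loxl1, Loxl3, Loxl4, Furin, Plau, Bsg and Bmp1 were added after their values were seen. Coordinates are those of the RefSeq promoter table (GRCm38.p6), not of mm39. Single results for 2 genes that this rule also picks are not reported here, while counts over lists include them.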

Additional observations from a re-analysis of the deposited data

Results flagged for a closer look

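A library was checked for standing apart from the other 3 of its group by the gap to its neighbour over the group's range (Dixon's 95% limit). Chance passes this limit in about 1 in 20 groups, and 9 of the 186 groups checked passed it, about as many as chance gives. Among the 9 genes 1 value passed: Mmp15 in knockout 1, at 5.36 CPM against 7.70 to 7.85 CPM in the other knockouts.

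Of these values, 4 were in control 1. It had 26.8 CPM of Mmp9 (4.41 to 6.12 in the other controls), 63.8 CPM of Adam8 (15.4 to 20.2) and 53.5 CPM of Csf3r (6.94 to 11.95). The summed neutrophil markers were 169 CPM in this library and 26.6 to 50.9 CPM in the other controls.

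Pzp was at 4.63 CPM in knockout 3 and at 1.19 to 1.66 CPM in the other knockouts. Mt2 was at 82.7 CPM in knockout 4, against 119 to 122 CPM in the other knockouts. Summed endothelial markers were 387 CPM in knockout 2, against 470.2 to 476 CPM in the other knockouts, and summed fat markers were 299 CPM in control 2, against 72.8 to 109 CPM in the other controls.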

How the results depend on the processing

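Timp1 fell and was called in all 17 alternative settings, with log2 fold changes of -2.09 to -1.67. Mmp2 was called in 9 of 17 (log2 fold changes 1.00 to 1.52) and Mmp7 in 9 of the 16 that tested it (-2.27 to -1.63); it was not tested at a minimum of 50 counts. The number of the 9 genes called was 4 in DESeq2, 1 to 4 without 1 library, 1 without control 1 and knockout 3 together and 1 with the replicate block, where Mmp2 (adjusted p = 0.101) and Mmp7 (0.0566) were lost. Genes called in all numbered 2997 in DESeq2, 865 with the block, 1045 without control 1 and knockout 3 together and 907 to 1984 without 1 library. The cause of these differences was not tested. Same-numbered libraries of the 2 groups, by the numbers of the sample titles, deviated together with correlations of -0.20, 0.04, 0.15 and -0.16. Over all pairs of a knockout and a control they ran from -0.33 to 0.35, highest for knockout 1 with control 2. The deposited column names number the knockouts otherwise. By those names knockout 1 shares its number with control 2, knockout 2 with control 3 (0.17), and knockouts 3 and 4 with no control. These values are too few to show or exclude a pairing of the libraries.

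Signs turned for genes that did not pass. Timp3 was at 0.00524 with DESeq2 size factors, 0.0348 with library totals, 0.00375 in DESeq2, 0.0407 with quality weights, 0.00696 at the stricter filter, 0.00230 with halved counts and, without 1 library, at up to 0.103. With quality weights Mmp15 was at 0.263, Lox at 0.0656, Furin at 0.0445, Plau at -0.0674 and Bsg at -0.0294; Furin was at 0.00971 with library totals and Atp8b1 at -0.00207 with no filter. Without control 1 and knockout 3 together Mmp15 was at 0.14, Lox at 0.34, Pid1 at 0.28 and Cyth4 at 0.18. Without 1 library the ranges were -0.31 to 0.18 for Mmp15, -0.11 to 0.10 for Timp3, -0.26 to 0.30 for Lox, -0.69 to 0.26 for Lyz2, -0.24 to 0.0723 for Tagln, -0.15 to 0.28 for Atp8b1, -0.19 to 0.31 for Lonrf3, -0.0404 to 0.204 for Plekhg5, -0.37 to 0.19 for Pid1, -0.47 to 0.15 for Cyth4, -0.11 to 0.10 for Furin and -0.0765 to 0.0806 for Plau. Library totals moved the median of all genes by 0.0229 and other settings by less. Mmp7 had 11 to 141 counts per library, and with halved counts its log2 fold change was -1.92 (adjusted p = 0.0274).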

Other observations

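Several stromelysin and collagenase genes were too low for a firm reading, and they were chosen after their values were seen. Mmp10 had 0, 0, 0 and 4 counts in knockouts 1 to 4 and 144, 2, 6 and 16 counts in controls 1 to 4. Mmp8, the neutrophil collagenase gene, had 28, 11, 8 and 17 counts in knockouts 1 to 4 and 218, 24, 12 and 0 counts in controls 1 to 4. In both genes control 1 was far above the other 7 libraries. Timp4, a TIMP gene with a narrow tissue range, had 8, 12, 6 and 12 counts in knockouts 1 to 4 and 4, 2, 0 and 2 counts in controls 1 to 4. Every knockout was higher there, at counts too low for the filter.

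Markers of other kidney cells were called in part. Of 8 loop and distal nephron markers 7 rose, with summed levels of 8164 to 8670 CPM in knockouts and 2538 to 4501 CPM in controls. Of 5 podocyte markers 4 rose (511 to 560 CPM in knockouts and 336 to 431 CPM in controls), and this count was 1 without knockout 2 or 4 or control 3 or 4. Of 9 proximal tubule markers 3 rose and 6 did not pass. Of 8 endothelial markers 3 rose and 5 did not pass (387 to 476 CPM in knockouts and 180 to 382 CPM in controls), and the count was 0 without knockout 3 or 4 and 1 without control 3.

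Markers of tissue that could have come along with the kidney gave no call in edgeR with all libraries or in DESeq2, and 0 had an unadjusted p under 0.05 in edgeR. Without knockout 2, edgeR called 2 of 4 fat markers lower, and limma voom with quality weights called 1 of them lower. Their summed levels overlapped between the groups. They were 62.6 to 200.1 CPM in knockouts and 72.8 to 299 CPM in controls for fat, and 16.5 to 39.8 CPM in knockouts and 14.2 to 49.9 CPM in controls for mesothelium. For urothelium they were 5.61 to 41.3 CPM in knockouts and 5.93 to 28.7 CPM in controls. Adrenal markers reached at most 4.95 CPM in knockouts and 4.07 CPM in controls, with Cyp11b1 and Cyp11b2 at 0 in all libraries. Skeletal muscle markers reached at most 1.91 CPM in knockouts and 1.32 CPM in controls, with Ckm and Myh4 at 0 in all libraries.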
